A study of Mus musculus with 6 samples.

Results

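Globins and the genes that make and supply heme were followed in B220+ cells of mouse bone marrow, which carry the form of CD45 typical of the B lineage. The members are 9 genes chosen by symbol from the 27761 genes of the deposited expression table: the alpha globins Hba-a1 and Hba-a2, the beta globins Hbb-bs and Hbb-bt, the heme synthesis genes Alas2, Uros, Urod and Fech, and the mitochondrial iron importer Slc25a37. All 9 had a row and all 9 passed the filter on low values. The study compared libraries labelled PELI2-CKO, whose genotype is given as PELI2 knockout, with libraries labelled WT, 3 of each. Strain, age, sex and the Cre driver behind the CKO label are not given in the labels. Whether the 3 replicates came from separate animals is not stated there either, and a p-value thus speaks of the spread among these libraries alone, which may be technical.

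Hemoglobin is a tetramer of alpha and beta globin chains, each holding a heme, and it fills maturing red cells. Heme is built in a chain of enzyme steps that starts and ends in the mitochondrion, where ferrochelatase places iron into the porphyrin ring. In marrow these genes peak in erythroblasts and their RNA persists in reticulocytes. In bulk RNA, fewer cells of a type and less RNA per cell cannot be told apart.

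Genes tied to the labelled cell type were read first. Ptprc, the gene of CD45 and so of B220, stood at 41.9, 42.3 and 44.2 FPKM (fragments per kilobase, scaled to library depth) in libraries labelled PELI2-CKO and at 40.1, 45.1 and 42.4 FPKM in WT. A gene-level value of Ptprc covers every form of CD45, so it cannot check the B220 label itself. The B cell receptor component Cd79a stood at 488, 504 and 516 FPKM in libraries labelled PELI2-CKO and at 724, 602 and 583 FPKM in WT. For Cd79a the libraries labelled PELI2-CKO thus lay wholly below WT, as for 14.3% of all tested genes. Peli2 itself was not lower under its knockout label, at 3.07, 2.70 and 2.47 FPKM in libraries labelled PELI2-CKO and 2.03, 2.54 and 1.99 FPKM in WT, and the ranges overlapped. Every direction below is therefore that of a label. Steps between low values placed the depth at 16600000 to 18100000 reads per library.

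The alpha globin genes lie on chromosome 11 (GRCm38), Hba-a1 at 32283511 to 32284465 and Hba-a2 at 32296489 to 32297298, both on the plus strand. The beta globin genes lie on the minus strand of chromosome 7, Hbb-bs at 103826534 to 103828096 and Hbb-bt at 103812524 to 103813996. Within each pair the coding sequences are nearly the same, which decides how far reads of 50 bases can be split between the copies. The coding parts of Hba-a1 and Hba-a2, 426 bases each without the stop codon, differ at 1 base, C381T, counted from the A of the start codon with the base of Hba-a1 given first. Those of Hbb-bs and Hbb-bt, 441 bases each, also differ at 1 base, C417T, with the base of Hbb-bs given first. The 60 bases around each difference are shown, read from GENCODE M21 transcripts, with the differing base in capitals.
Hba-a1, chr11:32284313-32284372, plus strand: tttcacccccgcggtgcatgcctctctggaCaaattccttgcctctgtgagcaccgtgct
Hba-a2, chr11:32297130-32297189, plus strand: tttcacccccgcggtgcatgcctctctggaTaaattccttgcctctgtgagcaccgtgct
Hbb-bs, chr7:103826668-103826727, minus strand: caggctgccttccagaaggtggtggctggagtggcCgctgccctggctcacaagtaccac
Hbb-bt, chr7:103812659-103812718, minus strand: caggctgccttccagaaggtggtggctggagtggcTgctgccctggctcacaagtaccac

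Of the 377 windows of 50 bases in the alpha coding part, 87.8% are found letter for letter in the other alpha transcript, and of the 392 windows in the beta coding part 93.6% are found in the other beta transcript. Most reads from these coding parts therefore carry nothing that separates the copies. The values of single copies rest on reads over the differing coding base and on reads that reach the untranslated ends. Over whole transcripts, 86.9% of Hba-a2 windows are found in Hba-a1, and 67.5% of Hba-a1 windows in Hba-a2. For the beta pair, 65.8% of Hbb-bs windows and 58.3% of Hbb-bt windows are found in the other copy. The transcript models also differ in length. The GENCODE model of Hba-a1 is 699 bases long and starts 161 bases before the RefSeq start, while that of Hba-a2 is 554 bases long and starts 3 bases before it. A longer model gives a lower FPKM for the same reads, so levels of single copies are uncertain and the sums per chain are given beside them.

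The promoters are shown because the members had higher means together. RefSeq windows (GRCm38.p6) were found for 7 of the 9 members, and the 250 bases before the start are shown for 3 globins and Alas2. Capitals mark 4 short motifs, searched on both strands. They are GATAA, the core read by the erythroid factor GATA1, then CACCC, the core read by the erythroid factor KLF1, then CCAAT, a common promoter element, and TATAA, the core of the TATA box. A motif on the minus strand shows as its reverse complement.
Hba-a1, chr11:32283422-32283671, plus strand: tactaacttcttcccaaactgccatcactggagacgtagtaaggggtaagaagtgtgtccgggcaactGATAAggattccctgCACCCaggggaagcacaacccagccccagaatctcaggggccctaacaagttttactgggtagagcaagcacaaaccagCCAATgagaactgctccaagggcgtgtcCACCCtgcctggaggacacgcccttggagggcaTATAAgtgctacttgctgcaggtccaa
Hbb-bs, chr7:103827929-103828178, minus strand: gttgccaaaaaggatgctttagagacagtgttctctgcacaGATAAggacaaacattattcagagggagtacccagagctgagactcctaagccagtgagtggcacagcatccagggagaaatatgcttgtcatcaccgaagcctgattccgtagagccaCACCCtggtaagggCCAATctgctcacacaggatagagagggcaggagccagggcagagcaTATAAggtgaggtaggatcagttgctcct
Hbb-bt, chr7:103813924-103814173, minus strand: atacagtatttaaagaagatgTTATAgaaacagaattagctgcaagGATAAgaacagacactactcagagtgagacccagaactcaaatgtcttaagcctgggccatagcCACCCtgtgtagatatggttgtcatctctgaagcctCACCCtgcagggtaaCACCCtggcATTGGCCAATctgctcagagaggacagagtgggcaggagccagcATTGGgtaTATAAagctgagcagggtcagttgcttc
Alas2, chrX:150547167-150547416, plus strand: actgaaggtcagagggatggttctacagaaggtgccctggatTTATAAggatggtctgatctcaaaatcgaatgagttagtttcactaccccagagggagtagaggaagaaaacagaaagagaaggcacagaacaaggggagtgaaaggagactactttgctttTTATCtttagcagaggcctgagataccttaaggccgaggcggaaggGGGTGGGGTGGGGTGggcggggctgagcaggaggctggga

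The Hba-a2 window holds the same letters as that of Hba-a1, shifted by 3 bases, with 297 of 297 compared bases identical over the full windows. Each of the 4 globin promoters holds all 4 motifs, and 0.968% of the 32851 windows in the RefSeq table do. The single motifs are common: 22.6% of windows hold GATAA, 52.0% CACCC, 33.8% CCAAT and 22.8% TATAA. In Hba-a1 the matches nearest the start begin 27 bases before it for TATAA, 60 for CACCC, 88 for CCAAT and 182 for GATAA. In Hbb-bs the TATAA match begins 29 bases before the start, the CACCC match 90, the CCAAT match 76 and the GATAA match 209. Alas2 has GATAA on the minus strand 86 bases before the start and 3 CACCC matches side by side, its TATAA matches form 1 palindrome read on both strands, and it has no CCAAT. The windows of Uros and Urod, which are not shown, lack most of these motifs. Uros has no match in its window 1 and only GATAA in its window 2, and Urod has only CCAAT. The motifs thus do not run through all members. A match of 5 letters is a description and not a binding site.

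The question of the comparison is which of these genes differ in B220+ cells under the knockout label. Each of the 9 members had a higher mean in libraries labelled PELI2-CKO, and none passed the test across all 12953 genes tested (limma on log2(FPKM + 1), Benjamini-Hochberg adjusted p under 0.05, where 3 genes or 0.0232% passed). Over all tested genes 46.4% had a higher mean there. The median log2 fold change was 0.38 over the 9 members, 0.46 over the 4 globins and 0.32 over the other 5, and it was -0.01 over all tested genes. At an unadjusted p under 0.05, 3 of the 9 members were higher and 0 lower, against 9.20% higher and 8.88% lower among all tested genes. Those shares move with the scaling: 1192 genes were higher and 1150 lower as deposited, 726 and 2328 after rescaling to a common total, and 954 and 1384 where that total left out globins and antigen receptor segments. The groups did not overlap for 2 of the 9 members, Hbb-bt and Urod, against 11.5% of tested genes that lay wholly higher.

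**Figure D1:**
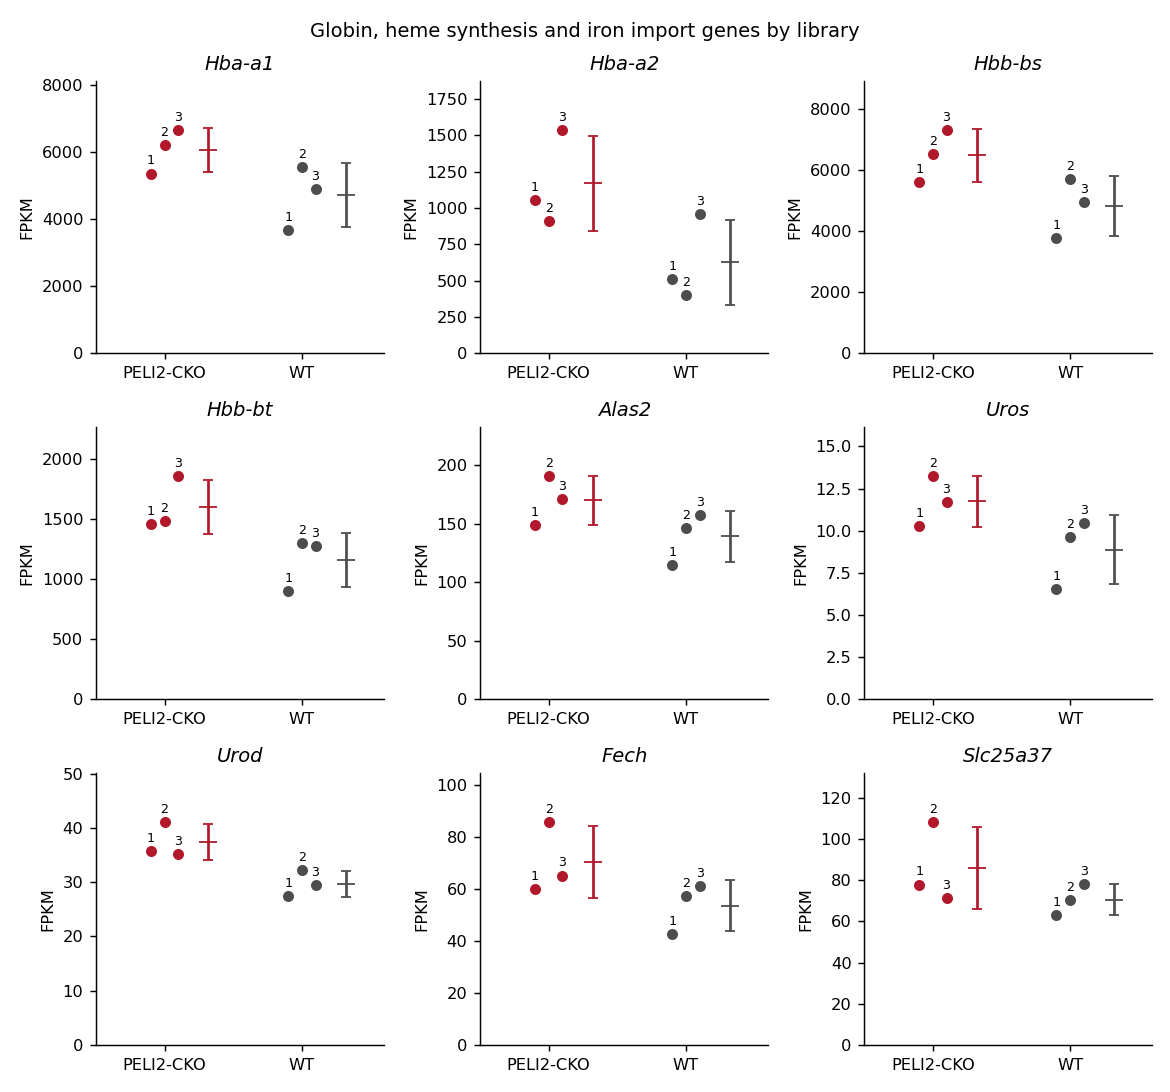
FPKM of each member in the 3 libraries labelled PELI2-CKO (red, left) and the 3 WT libraries (grey, right), with replicate numbers above the points and the mean ± SD beside them. The groups lie apart for Hbb-bt and Urod, and WT replicate 1 is the lowest library for 8 of the 9 genes.

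Hbb-bs, the more abundant beta globin copy, stood at 5600, 6528 and 7310 FPKM in libraries labelled PELI2-CKO and at 3772, 5721 and 4957 FPKM in WT. It ranked between 1 and 3 among all genes of the table in every library, and WT replicate 2 lay above the lowest library labelled PELI2-CKO. Its log2 fold change was 0.44 (SE 0.20, limma adjusted p = 0.316).

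Hbb-bt, the other beta copy, stood at 1461, 1481 and 1859 FPKM in libraries labelled PELI2-CKO and at 897, 1299 and 1274 FPKM in WT. Every library labelled PELI2-CKO lay above every WT library. The log2 fold change was 0.48 (SE 0.18, limma unadjusted p = 0.0331 and adjusted p = 0.243). The gene has 1 annotated transcript, on which these values correspond to 17764 to 23602 reads in libraries labelled PELI2-CKO and 11173 to 15439 reads in WT, so counting error is small beside the spread between libraries. Error from splitting reads between the copies is not covered by this, since 58.3% of Hbb-bt windows are also found in Hbb-bs.

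Hba-a1, the more abundant alpha copy, stood at 5354, 6198 and 6646 FPKM in libraries labelled PELI2-CKO and at 3676, 5551 and 4882 FPKM in WT. The groups overlapped through WT replicate 2, and the log2 fold change was 0.38 (SE 0.20, limma adjusted p = 0.359).

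Hba-a2 had the largest difference of the members and the widest spread. It stood at 1057, 912 and 1535 FPKM in libraries labelled PELI2-CKO and at 514, 401 and 959 FPKM in WT, where WT replicate 3 lay above the lowest library labelled PELI2-CKO. The coefficient of variation was 27.9% in libraries labelled PELI2-CKO and 47.2% in WT, against 10.8% in libraries labelled PELI2-CKO and 20.2% in WT for Hba-a1. The log2 fold change was 0.97 (SE 0.34, limma unadjusted p = 0.0279 and adjusted p = 0.232).

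Summed over near-identical copies, alpha globin stood at 6411, 7111 and 8182 FPKM in libraries labelled PELI2-CKO and at 4190, 5953 and 5842 FPKM in WT. Beta globin stood at 7061, 8009 and 9169 FPKM in libraries labelled PELI2-CKO and at 4669, 7021 and 6231 FPKM in WT. On these sums the groups no longer overlapped for either chain, by a small margin for beta. The FPKM of all genes together was also wholly higher under the knockout label, at 331189 to 338098 in libraries labelled PELI2-CKO and 309301 to 323155 in WT. As a share of that total, the 4 globins together overlapped between groups. When the sums replaced the single copies in the fit, a choice made after seeing the data, the log2 fold change was 0.45 for alpha (SE 0.20, limma unadjusted p = 0.0573, adjusted p = 0.290) and 0.45 for beta (SE 0.21, limma unadjusted p = 0.0696, adjusted p = 0.315).

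The balance between the chains was then compared. Alpha over beta was 0.908, 0.888 and 0.892 in libraries labelled PELI2-CKO and 0.897, 0.848 and 0.938 in WT. The means, 0.896 ± 0.011 and 0.894 ± 0.045 (SD, n = 3 each, PELI2-CKO label and WT), differed by less than the spread within either group. Hbb-bt made up 20.7%, 18.5% and 20.3% of beta FPKM in libraries labelled PELI2-CKO and 19.2%, 18.5% and 20.4% in WT. Hba-a2 made up 16.5%, 12.8% and 18.8% of alpha FPKM in libraries labelled PELI2-CKO and 12.3%, 6.74% and 16.4% in WT, so the split between alpha copies moved from library to library within each group while the split between beta copies held within a narrow range. The share of all FPKM held by the 4 globin genes was 4.04%, 4.57% and 5.13% in libraries labelled PELI2-CKO and 2.86%, 4.05% and 3.74% in WT, which overlapped.

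**Figure D2:**
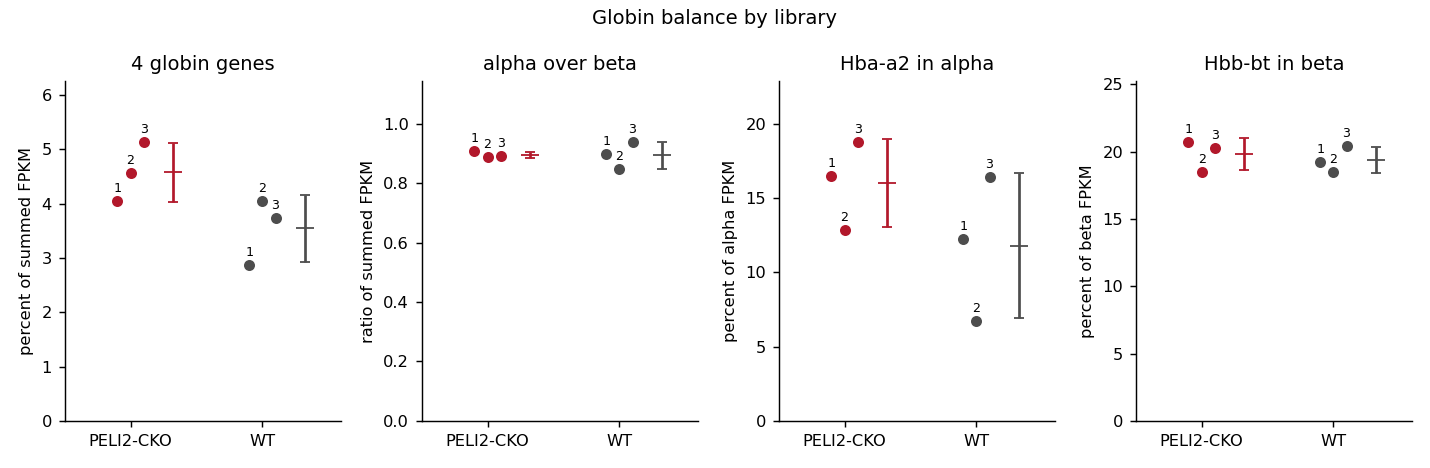
Globin share of summed FPKM, the alpha to beta ratio, and the shares of Hba-a2 and Hbb-bt within their chains, in libraries labelled PELI2-CKO (red, left) and WT (grey, right), with replicate numbers and mean ± SD. The alpha to beta ratio lies between 0.848 and 0.938 in all libraries, while the share of Hba-a2 runs from 6.74% to 18.8%.

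Alas2, which encodes the erythroid enzyme of the rate-limiting step of heme synthesis, lies on chromosome X at 150547375 to 150570638. Its messenger carries an iron-responsive element, a hairpin that iron regulatory proteins bind to hold back translation when iron is short, so its RNA level need not follow its protein. The element was found in the untranslated part before the start codon, as a C followed by 5 paired bases on each side of a loop of 6 bases, shown in capitals.
Alas2, chrX:150547461-150547484, plus strand: gttcgtcctCAGTGCagggcaaca

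Alas2 stood at 149, 191 and 171 FPKM in libraries labelled PELI2-CKO and at 115, 146 and 157 FPKM in WT. The groups overlapped, with WT replicate 3 above replicate 1 of the PELI2-CKO label, and the log2 fold change was 0.29 (SE 0.14, limma adjusted p = 0.328). Its exons share 311 bases with Apex2 on the other strand, which averaged 1.58 FPKM over the 6 libraries. Since strand use is not stated, reads there cannot be told apart.

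Uros, on chromosome 7 at 133686243 to 133710072, encodes the synthase that closes the tetrapyrrole ring. It stood at 10.2, 13.3 and 11.7 FPKM in libraries labelled PELI2-CKO and at 6.55, 9.62 and 10.5 FPKM in WT, the lowest levels of the 9 members. The groups overlapped through WT replicate 3 by a small margin, and the log2 fold change was 0.38 (SE 0.17, limma adjusted p = 0.292).

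Urod, on chromosome 4 at 116989965 to 116994413, encodes the decarboxylase of the next step. It stood at 35.8, 41.2 and 35.3 FPKM in libraries labelled PELI2-CKO and at 27.4, 32.2 and 29.5 FPKM in WT, and every library labelled PELI2-CKO lay above every WT library. It had the smallest p of the members, with a log2 fold change of 0.32 (SE 0.083, limma unadjusted p = 0.0067 and adjusted p = 0.166). Its spread was also the smallest, with a coefficient of variation of 8.73% in libraries labelled PELI2-CKO and 8.10% in WT.

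Fech, ferrochelatase, which closes the path by inserting iron, lies on chromosome 18. It stood at 59.9, 85.9 and 65.2 FPKM in libraries labelled PELI2-CKO and at 42.5, 57.1 and 61.0 FPKM in WT. Replicate 2 of the PELI2-CKO label stood well above the other libraries, WT replicate 3 lay above replicate 1 of that label, and the log2 fold change was 0.39 (SE 0.18, limma adjusted p = 0.306).

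Slc25a37, mitoferrin-1, which carries iron into the mitochondrion of erythroid cells, lies on chromosome 14 at 69241848 to 69285112. It stood at 78.0, 108 and 71.4 FPKM in libraries labelled PELI2-CKO and at 63.1, 70.2 and 78.2 FPKM in WT. The difference was the smallest of the members, with a log2 fold change of 0.26 (SE 0.16, limma adjusted p = 0.432), and without replicate 2 of the PELI2-CKO label it was 0.09 (SE 0.10).

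Set against Alas2 in the same library, the proportions of the other heme genes overlapped between groups except for Uros. Per 100 FPKM of Alas2, Uros held 6.89, 6.94 and 6.85 FPKM in libraries labelled PELI2-CKO and 5.69, 6.58 and 6.65 FPKM in WT, which did not overlap. The margin to WT replicate 3 was small, and Uros has the lowest levels of the members. How often such a ratio lies apart over all genes was not computed. Among single tested genes, 11.5% lay wholly higher and 14.3% wholly lower. For Fech the ranges were 38.1 to 45.0 FPKM in libraries labelled PELI2-CKO and 37.0 to 39.1 FPKM in WT. For Urod they were 20.6 to 24.0 FPKM in libraries labelled PELI2-CKO and 18.8 to 23.8 FPKM in WT, and for Slc25a37 41.8 to 56.8 FPKM in libraries labelled PELI2-CKO and 48.0 to 54.9 FPKM in WT. Alas2 itself stood at 9.85 to 12.6 per 1000 FPKM of globin in libraries labelled PELI2-CKO and at 11.3 to 13.0 in WT.

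The members did not peak in the same library. All 4 globins were highest in replicate 3 of the PELI2-CKO label, and the 5 heme and iron genes were highest in replicate 2 of that label. On the log2(FPKM + 1) scale, centred on each gene's mean over the 6 libraries, Hbb-bs lay at 0.24 in replicate 2 and 0.40 in replicate 3 of the PELI2-CKO label, while Fech lay at 0.50 and 0.10 in the same libraries. Genes of the red cell membrane and late erythroid list followed the heme genes in this, with 24 of 27 tested genes highest in replicate 2, as were 10 of 11 tested genes of the rest of the heme path. Neutrophil genes were highest in replicate 3 for 12 and in replicate 2 for 7 of 19 tested. How often each library was the highest over all tested genes was not computed.

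WT replicate 1 was the lowest library for 8 of the 9 members, all but Hba-a2. It was also the lowest for 25 of 27 red cell membrane and late erythroid genes and for 18 of 19 neutrophil genes tested. Its FPKM total over all genes, 309301, was the lowest of the libraries as well. How often it was the lowest library over all tested genes was not computed. All 16 B-lineage genes were highest in a WT library. This was replicate 2 for Ptprc, Ms4a1, Cd22 and Bank1 and replicate 3 for Vpreb1 and Igll1. It was replicate 1 for the rest, among them Cd79a, Pax5 and Ebf1. For 2 of the 16, Ptprc and Bank1, WT replicate 1 was the lowest library. Without WT replicate 1 all 9 members still had a higher mean, but 1 of them, Urod (log2 fold change 0.27, limma adjusted p = 0.310), had an unadjusted p under 0.05. The log2 fold changes of Hba-a1, Hbb-bs, Hbb-bt, Alas2, Uros and Fech were then 0.21, 0.27, 0.31, 0.16, 0.20 and 0.23. Leaving out replicate 2 of the PELI2-CKO label brought the log2 fold change of Fech to 0.23 as well.

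**Figure D3:**
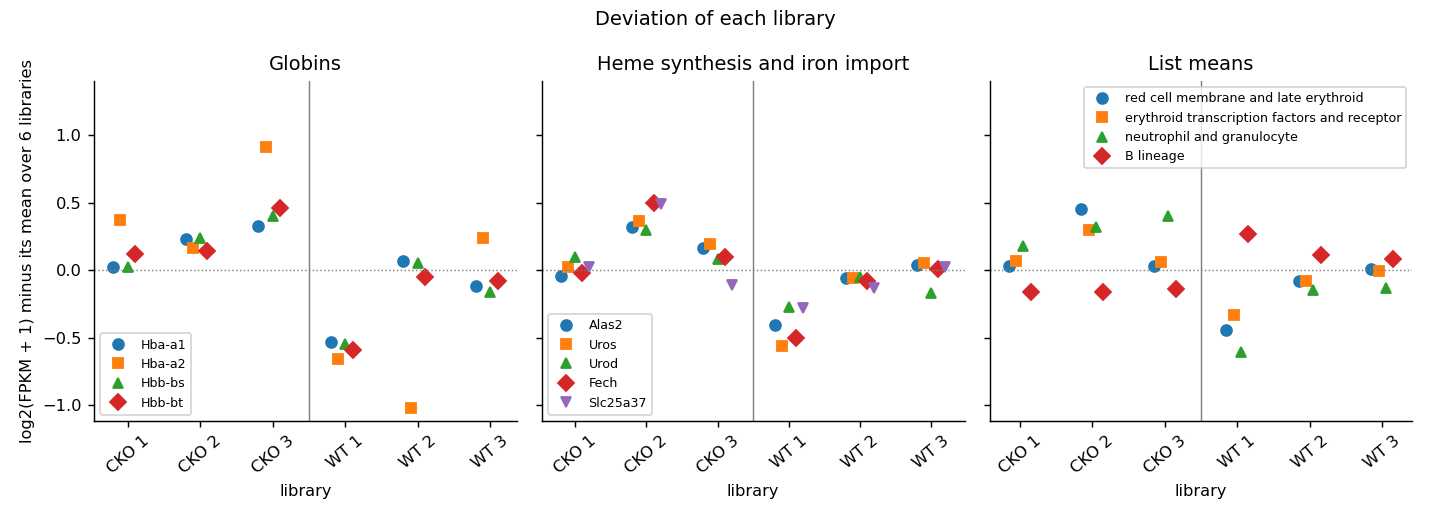
Deviation of each library from the gene's mean over 6 libraries, on log2(FPKM + 1), for the globins, for the heme and iron genes, and as means over tested genes of 4 lists, with libraries labelled PELI2-CKO (CKO) left of WT. Globins peak in CKO 3 and heme and iron genes in CKO 2, and WT 1 lies lowest for all but Hba-a2 and highest for the B lineage mean.

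**Figure D4:**
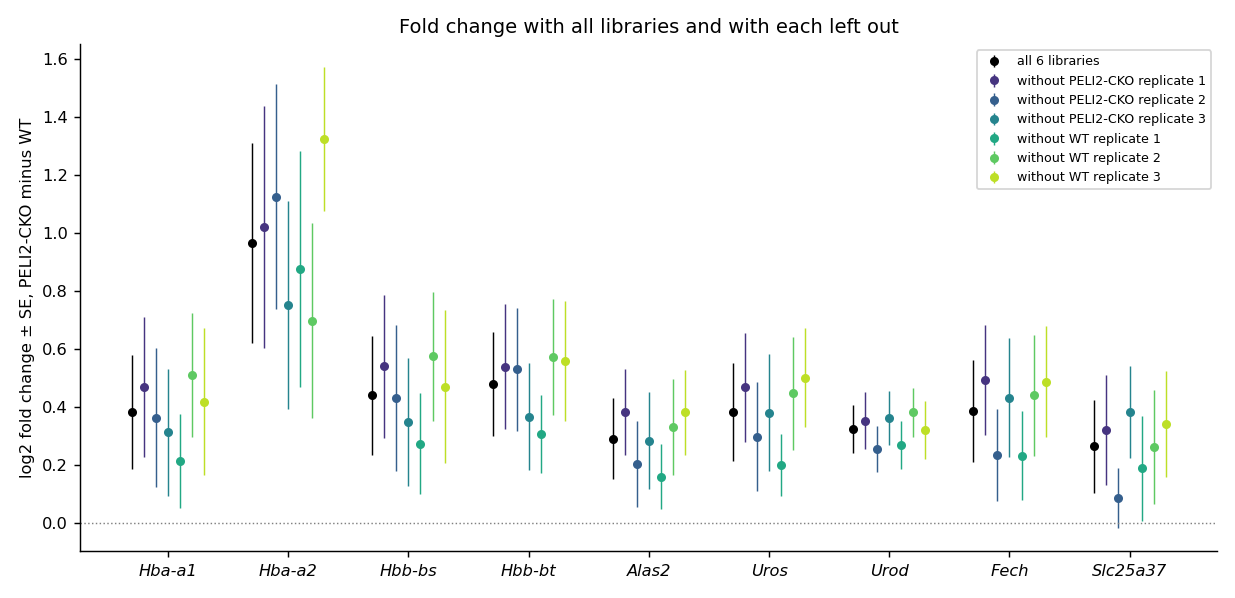
Log2 fold change ± SE (PELI2-CKO minus WT) of each member with all 6 libraries (black) and with each library left out (colours). All values lie above 0, the lowest being 0.09 for Slc25a37 without PELI2-CKO replicate 2.

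The rest of the heme path had mostly higher means as well. Of 11 tested genes 10 were higher and 1 lower in libraries labelled PELI2-CKO, with a median log2 fold change of 0.25. At an unadjusted p under 0.05, 4 were higher, against 9.20% of all tested genes. Alas1, the isoform of the opening enzyme that all cells use, had the largest log2 fold change, 0.63 (SE 0.097, limma adjusted p = 0.114). It stood at 14.4, 17.2 and 13.9 FPKM in libraries labelled PELI2-CKO and at 8.56, 9.48 and 10.3 FPKM in WT. The groups lay apart, as for the 11.5% of tested genes that lay wholly higher. Tmem14c, which moves a porphyrin intermediate into the mitochondrial matrix, stood at 122, 131 and 131 FPKM in libraries labelled PELI2-CKO and at 94.1, 111 and 117 FPKM in WT. The oxidases of the late path overlapped between groups: Cpox stood at 69.6, 89.4 and 55.8 FPKM in libraries labelled PELI2-CKO and at 41.1, 52.1 and 57.1 FPKM in WT. Ppox stood at 26.2, 28.8 and 24.0 FPKM in libraries labelled PELI2-CKO and at 20.4, 22.9 and 24.3 FPKM in WT.

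Genes of iron handling were divided. Of 16 tested 10 had higher and 6 lower means in libraries labelled PELI2-CKO, with a median log2 fold change of 0.14. An unadjusted p under 0.05 was reached by 5 of the higher and 0 of the lower. Among all tested genes the shares were 9.20% higher and 8.88% lower. Tfr2, a transferrin receptor of erythroid and liver cells, stood at 4.74, 5.69 and 5.40 FPKM in libraries labelled PELI2-CKO and at 2.43, 3.58 and 4.11 FPKM in WT (limma adjusted p = 0.183). The ferritin light chain gene Ftl1 stood at 342, 375 and 359 FPKM in libraries labelled PELI2-CKO and at 291, 331 and 317 FPKM in WT. Glrx5, of iron-sulfur cluster assembly, stood at 27.6, 32.5 and 27.5 FPKM in libraries labelled PELI2-CKO and at 22.7, 23.8 and 27.2 FPKM in WT. Steap3, an endosomal iron reductase, had log2 fold change 0.26 (SE 0.096, limma adjusted p = 0.243).

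Of 9 tested genes of heme export, transport and breakdown 8 had higher means, with a median log2 fold change of 0.15. At an unadjusted p under 0.05, 3 were higher, against 9.20% of all tested genes. Blvrb, a biliverdin reductase abundant in red cells, stood at 48.2, 57.5 and 53.5 FPKM in libraries labelled PELI2-CKO and at 40.9, 43.0 and 44.0 FPKM in WT (limma adjusted p = 0.153). Hebp1, a heme-binding protein, had log2 fold change 0.45, Abcg2, an exporter that carries porphyrins, 0.39, and the lysosomal heme transporter Slc48a1 0.17. Of the other globins, Hbq1b of the alpha cluster stood at 9.06, 15.0 and 11.8 FPKM in libraries labelled PELI2-CKO and at 8.25, 11.4 and 9.68 FPKM in WT, and its neighbour Hbq1a between 1.10 and 1.56 FPKM in libraries labelled PELI2-CKO and between 0.75 and 1.29 FPKM in WT. The embryonic globins Hbb-y and Hba-x reached at most 0.35 and 0.062 FPKM in any library.

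Erythroid regulators and genes of the red cell membrane were counted next. Of 11 tested transcription factor and receptor genes 9 had higher means in libraries labelled PELI2-CKO, with a median log2 fold change of 0.35. At an unadjusted p under 0.05, 5 were higher, against 9.20% of all tested genes. Klf1, which activates the adult beta globin genes, had log2 fold change 0.62 (SE 0.19, limma adjusted p = 0.197) and stood at 39.2, 53.0 and 39.8 FPKM in libraries labelled PELI2-CKO and 21.4, 30.2 and 33.8 FPKM in WT. Gata1, the master regulator of erythroid genes, stood at 14.0, 18.4 and 15.4 FPKM in libraries labelled PELI2-CKO and at 8.17, 12.9 and 11.7 FPKM in WT. Its groups lay apart, as for the 11.5% of tested genes that lay wholly higher. Lmo2, of the same complex, had log2 fold change 0.33 and the erythropoietin receptor Epor 0.42.

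All 27 tested red cell membrane and late erythroid genes had higher means in libraries labelled PELI2-CKO, with a median log2 fold change of 0.33. At an unadjusted p under 0.05, 8 of these genes were higher, against 9.20% of all tested genes. Their summed level ran from 1201 to 1634 FPKM in libraries labelled PELI2-CKO and from 834 to 1198 FPKM in WT. The margin between the groups was thus very small, and the FPKM of all genes together was also wholly higher under the knockout label. The share of that total held by this list was not computed, so the sums do not show that the groups lie apart. Car1, a carbonic anhydrase of red cells, had the largest log2 fold change, 0.77 (SE 0.23, limma adjusted p = 0.188). Prdx2, an abundant peroxiredoxin of red cells, had log2 fold change 0.35 and the exonuclease Isg20 0.44. None of the listed genes reached an adjusted p under 0.05 in limma.

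Markers of other cells also differed in mean. All 19 tested neutrophil and granulocyte genes had higher means in libraries labelled PELI2-CKO, at a median of 0.45 on the log2 scale. Of these, 13 had an unadjusted p under 0.05, against 9.20% higher among all tested genes. The summed level of the list ran from 12713 to 15055 FPKM in libraries labelled PELI2-CKO and from 8105 to 11240 FPKM in WT. The genes of smallest p in it were primary granule genes, with log2 fold changes of 1.37 for Mpo, 1.65 for Ctsg, 1.57 for Prtn3 and 1.33 for Elane. Of 16 B-lineage genes 14 had lower means, with a median of -0.34 over the list. An unadjusted p under 0.05 was reached by 9 of the lower genes, against 8.88% lower among all tested genes. The summed level of the B-lineage list ran from 3786 to 3842 FPKM in libraries labelled PELI2-CKO and from 4411 to 5418 FPKM in WT. Ebf1, Pax5 and Blnk had log2 fold changes of -0.44, -0.38 and -0.28. Of 10 tested megakaryocyte and platelet genes 6 were higher and 4 lower, with a median of 0.05 and sums of 41.4 to 88.8 FPKM in libraries labelled PELI2-CKO and 47.0 to 68.9 FPKM in WT, where Gp9 had log2 fold change 0.24, Vwf 0.09, Itgb3 -0.06 and Ppbp -0.26. No marker of these 3 lists was at 0 in all libraries, and the part of other cells in the values of the members was not tested.

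**Figure D5:**
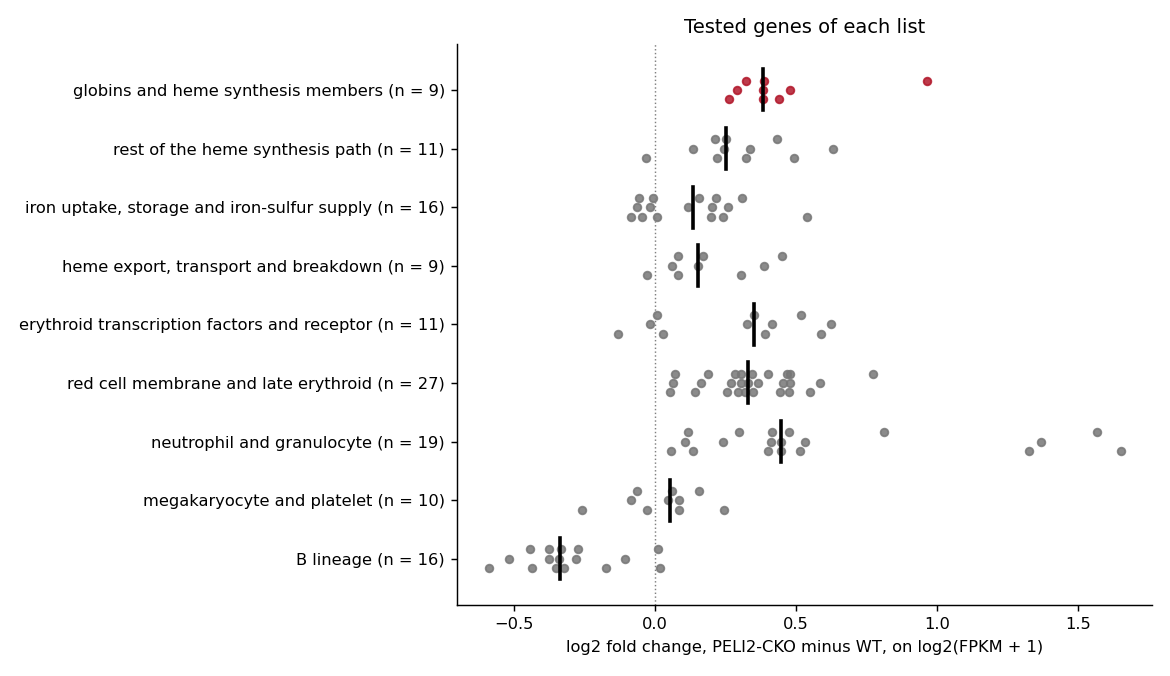
Log2 fold change (PELI2-CKO minus WT, on log2(FPKM + 1)) of each tested gene of 9 lists, 1 point per gene, with a black bar at the list median. The 9 members (red) lie between 0.26 and 0.97, the 27 red cell membrane and late erythroid genes between 0.05 and 0.77, the 19 neutrophil genes between 0.06 and 1.65, and the 16 B-lineage genes between -0.59 and 0.02.

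The 5 genes outside these lists whose library profile lay nearest the mean of the 4 globins were then found. Predicted genes named Gm with a number, Rik clones, antigen receptor segments and genes without a symbol were left out of this search. By root mean square distance over the 6 libraries on centred log2(FPKM + 1) they were the pseudogene Tmed10-ps at 0.047, Csf1r at 0.070, Trem1 at 0.078, Gdf3 at 0.080 and Wfdc21 at 0.083. Csf1r is the growth factor receptor of macrophages and Trem1 a receptor of myeloid cells. Csf1r stood at 15.8, 15.1 and 18.3 FPKM in libraries labelled PELI2-CKO and at 8.33, 11.2 and 14.0 FPKM in WT. Gdf3 stood at 1.12, 1.21 and 1.78 FPKM in libraries labelled PELI2-CKO and at 0.21, 0.57 and 0.62 FPKM in WT. It passed the filter of 1 FPKM in 3 libraries only through the group where it was higher, so its direction was partly set by the filter. The globins themselves lay at 0.086 for Hbb-bt, 0.148 for Hbb-bs, 0.163 for Hba-a1 and 0.387 for Hba-a2, and Alas2 lay at 0.203. Each globin thus lay farther from the mean than the 5 genes did. Hba-a2 lay at -1.02 in WT replicate 2 and 0.24 in WT replicate 3. In the same libraries Hba-a1 lay at 0.07 and -0.12, Hbb-bs at 0.05 and -0.16, and Hbb-bt at -0.05 and -0.08. The mean mixes these opposed orders, so nearness to it does not show that a gene follows the abundant globins. All these profiles share the same 6 libraries.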

How the data were processed

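The deposited table gives FPKM per gene and library, made by the authors, with no scaling across libraries stated. Per the submitters' processing notes the build was GRCm38.p6 and the tools were RSEM 1.2.12, HISAT2 2.0.4, DESeq2 1.4.5 and Bowtie2 2.2.5, with no role or order given. Per the labels' protocols, oligo(dT)-purified mRNA was read as single ends of 50 bases. Depth was found as the library total that made FPKM times length nearest to whole reads for genes with 1 annotated transcript: 99.3% to 99.5% of values under 6 reads were whole within 0.03 reads. Intervals were not computed.

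Genes that reached an FPKM of 1 in 3 or more libraries entered a limma 3.58.1 fit (R 4.3.3) of log2(FPKM + 1) (eBayes with a trend, two-sided, PELI2-CKO minus WT), which was tested on simulated data, and adjusted by Benjamini-Hochberg over 12953 genes. Fold changes on this scale understate those of low genes. Members and lists were chosen with earlier results of these data known. The text names all members, up to 4 genes of smallest p per list, and the 5 nearest profiles. Some genes that the rule picks are not reported here. Ptprc, Cd79a, Peli2, Hbb-y, Hba-x, Ms4a1, Cd22, Bank1, Vpreb1 and Igll1 fall outside that rule and were named after their values were seen. Hbb-bh0, Hbb-bh1, Hbb-bh2, Hbb-bh3, Hbb-b1, Hbb-b2, Ahsp and Mb were not analysed here. Alternatives were other pseudocounts, filters, scalings, variance settings, a replicate block and each library left out. Figures used matplotlib 3.10.9.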

Additional observations from a re-analysis of the deposited data

How the results depend on the processing

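All 9 members kept a higher mean in the libraries labelled PELI2-CKO and stayed short of an adjusted p under 0.05 (limma) under each other setting tried: 3 scalings, pseudocounts of 0.1 and 0.5, a filter of 5 FPKM or none, eBayes without a trend, library weights, the replicate block and each library left out. Over the alternatives the log2 fold change ran from 0.21 to 0.51 for Hba-a1, 0.70 to 1.33 for Hba-a2, 0.25 to 0.38 for Urod and 0.09 to 0.38 for Slc25a37, and adjusted p for Urod from 0.137 to 0.368. The number of members with an unadjusted p under 0.05, 3 with all libraries, was 1 to 6 with a library left out (1 without PELI2-CKO replicate 3 or without WT replicate 1, and 5 and 6 without PELI2-CKO replicate 1 and WT replicate 3), and 1 of 7 when near-identical globin copies were summed, an alternative chosen after seeing the data. Over all genes 3 passed with all libraries, 1 with a filter of 5 FPKM, 6 without a trend and 1 to 13 with a library left out (13 without PELI2-CKO replicate 3, and 1 without PELI2-CKO replicate 1 or 2). Higher genes at an unadjusted p under 0.05, 1192 of 12953 with all libraries, also varied: 851 of 12769 without PELI2-CKO replicate 1, 956 of 12779 without PELI2-CKO replicate 3, 857 of 12799 without WT replicate 1 and 1278 of 12787 without WT replicate 3. The causes were not tested. With a library left out, the difference in alpha to beta ratio ran from -0.0215 to 0.0234 around 0.00173, and that in globin share of FPKM from 0.685 to 1.30 percentage points around 1.03.

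With the replicate number as a block, 7 members had an unadjusted p under 0.05 and 0 passed after adjustment, while over all 12953 genes an unadjusted p under 0.05 was reached by 1310 that were higher and 1184 that were lower, and 4 passed after adjustment. The labels do not say what a number shares. Deviations of libraries with the same number correlated at 0.10, 0.04 and 0.09 across genes, and each library correlated best with its own number. These correlations are small, and taking deviations from the mean of each group ties them together. With 3 libraries per group few matchings of numbers exist. The correlations therefore cannot show whether libraries with the same number share anything. Counting error is larger for low members: were all reads from the shortest annotated transcript, Uros would rest on 60 to 73 reads in libraries labelled PELI2-CKO and 37 to 58 in WT, and Urod on 103 to 114 in libraries labelled PELI2-CKO and 79 to 87 in WT.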
